A study of Mus musculus with 6 samples.

Results

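Cholesterol and fatty acid synthesis was followed through 28 genes in the colonic epithelium of C57BL/6J mice, with 3 wild-type libraries and 3 from animals that lack Nr3c1, which encodes the glucocorticoid receptor, in intestinal epithelial cells. The 28 genes were taken from a fixed list of symbols, and all 28 had a row among the 23725 genes of the deposited table. They fall into 19 enzymes of sterol synthesis, 3 genes that control both pathways and 6 enzymes of fatty acid synthesis. The knockout mice (Nr3c1IEC-/-) carried B6-Cg-Nr3c1-Vil-Cre/ERT2, a Cre recombinase under the villin promoter, which is active in gut epithelium and needs tamoxifen to act. Tamoxifen was injected on 5 consecutive days, a treatment listed for wild-type and knockout animals alike, and epithelial cells were collected on day 7, counted from the first dose, and enriched with Percoll. The labels do not say whether wild-type animals carried the transgene, nor do they give the age or sex of the animals. Each library is a separate sample in the labels, which do not state that each came from its own mouse, so p-values measure the spread between these samples.

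Cells build cholesterol from acetyl-CoA. Acetyl units are joined to HMG-CoA, carried through mevalonate to isoprenoids such as farnesyl diphosphate, condensed to squalene, closed to lanosterol and trimmed to cholesterol. Fatty acid synthesis starts from the same acetyl-CoA, which Acly makes from citrate, and the products are elongated and desaturated. Both pathways are switched on by SREBP transcription factors, of which the Srebf2 product acts mainly on sterol genes and the Srebf1 product on fatty acid genes, and INSIG proteins hold SREBPs back in the endoplasmic reticulum when sterols are plentiful. The colonic epithelium renews itself throughout life and needs membrane lipid for each new cell.

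The promoters of these genes are where SREBPs bind together with the CCAAT factor NF-Y and the GC-box factor Sp1, so their upstream sequence is shown for 3 members. Hmgcs1 is printed because its window held the only match to the SREBP consensus among the members, and Acat2 and Mvd because they rose and their windows held upstream sequence outside annotated transcripts with a match. Sequences are from RefSeq on GRCm38.p6, 5′ to 3′ on the gene's strand, and capitals mark matches to the SREBP consensus (TCACNCCAC), the NF-Y box (CCAAT) and the GC box (GGGCGG), each on either strand.
Hmgcs1, chr13:119690108-119690338, plus strand, 243 to 13 bases before the start: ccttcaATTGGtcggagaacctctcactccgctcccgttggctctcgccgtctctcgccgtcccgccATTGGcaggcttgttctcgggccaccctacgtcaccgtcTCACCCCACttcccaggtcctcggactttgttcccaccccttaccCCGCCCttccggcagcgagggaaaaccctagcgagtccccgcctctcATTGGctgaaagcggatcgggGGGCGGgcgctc
Mvd, chr8:122443439-122443568, minus strand, 146 to 17 bases before the start: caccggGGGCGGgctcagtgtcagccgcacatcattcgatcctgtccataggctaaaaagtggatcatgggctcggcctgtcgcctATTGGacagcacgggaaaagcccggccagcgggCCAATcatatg
Acat2, chr17:12960748-12960764, minus strand, 39 to 23 bases before the start: atagctCCGCCCccccc

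In Hmgcs1 the SREBP match began 137 bases before the start and lay between NF-Y boxes that began 176 and 45 bases before it. In Mvd the NF-Y boxes began 60 and 27 bases before the start, on opposite strands. Idi1, which also rose, had a GC box beginning 69 bases and NF-Y boxes beginning 45 and 14 bases before its start. A window of 250 bases before to 50 bases after the start was given for 23 of the 28 members, all but Fdps, Fdft1, Sqle, Scd1 and Scd2. The NF-Y box was matched in 20 of these 23 (87%), beside 43.1% of the 10244 genes tested for expression that had a window and 41.1% of all 27025 genes with one. Of the 16 sterol enzymes with a window 15 held it, the one without being Acat2, while 2 of 4 fatty acid enzymes did. The GC box was matched in 18 of 23 (78.3%), beside 66.7% of tested genes and 38.2% of all genes. The E-box CACGTG was found in Dhcr7, Hsd17b7, Insig1 and Sc5d, 17.4% of the members, beside 11.4% of tested genes and 8.09% of all genes. The SREBP consensus was found in 4.35% of the members, beside 1.39% of tested genes and 1.44% of all genes. A palindromic consensus of the glucocorticoid response element was not found in any of the 23 windows, and 0.332% of tested genes and 0.537% of all genes held it. Both strands were searched, overlapping matches were allowed, and matches are descriptions of these windows, not sites of binding.

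**Figure D1:**
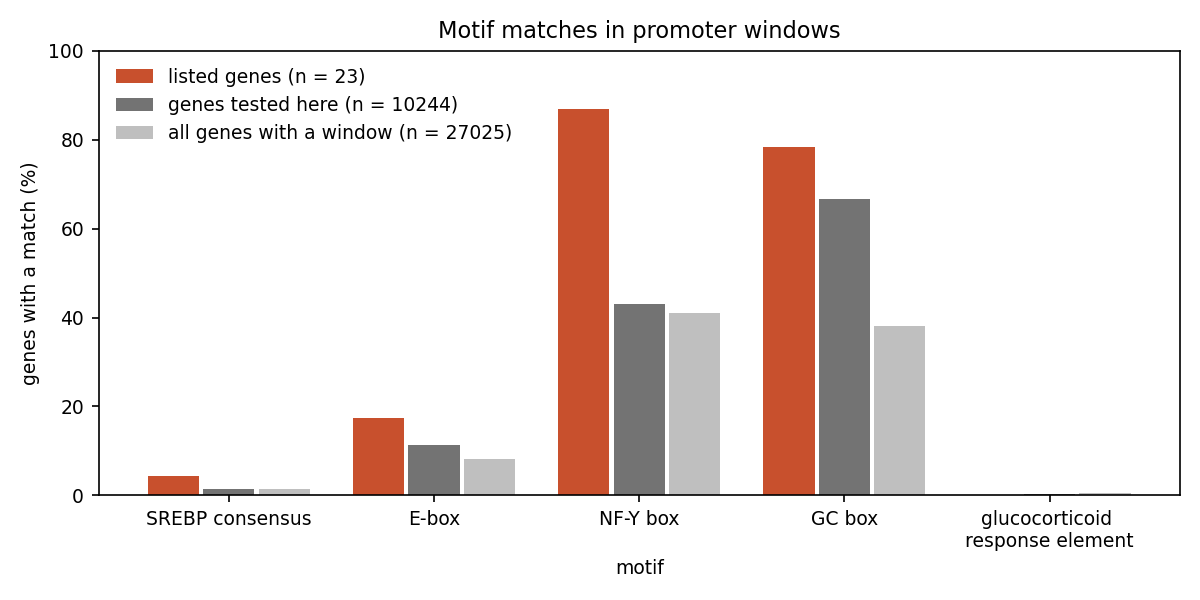
Share of genes (%, vertical axis) with at least 1 match to each motif in a promoter window, for the 23 listed genes, the 10244 tested genes and all 27025 genes with a window. The NF-Y box stands at 87% in the listed genes and at 43.1% in the tested genes, whereas the GC box stands at 78.3% and 66.7%.

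The labels were first checked on Nr3c1. The libraries labelled knockout held 145, 123 and 175 normalized reads (gene counts divided by 1 size factor per library) and the libraries labelled wild type replicates 1 and 2 held 1120 and 967. The library labelled wild type replicate 3 held 197, close to the knockout libraries, so it goes against its label at this gene. Over all genes tested it went with its label. Correlations between libraries on the log2 scale were 0.960 to 0.982 within groups and 0.848 to 0.941 between groups. Why it differed at Nr3c1 was not tested. Each direction below counts it as wild type, and counts of called genes are also given without it. The exact two-sided permutation test gave p = 0.1, the smallest that 3 against 3 libraries allow. Recovered reads numbered 10089313 to 12030844 per library. Of 12 colonic epithelial markers 2 rose, 3 fell and 7 did not pass the test, with or without that library, and none was at 0. Their sum was 465622 to 478236 in the wild-type and 350573 to 448171 in the knockout libraries. Without the carbonic anhydrase Car1, singled out after its values were seen, the sum of the other 11 was 312264 to 357470 and 328067 to 381573, and these ranges overlap. Car1 was left out because it fell most, which made overlap likely, so these sums cannot show that epithelial content was alike. In bulk samples fewer cells of a type and less RNA per cell cannot be told apart.

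Transcripts of 4 enzymes in the early steps of cholesterol synthesis were higher in the knockout libraries. Acat2, Mvd, Idi1 and Fdps rose by 1.44-fold to 1.59-fold, and the other 15 of the 19 sterol enzymes did not pass the test. All 28 members passed the filter on low values, and the limma fit with Benjamini-Hochberg adjustment ran over 12837 genes, of which 15% were called higher and 15.4% lower in the knockout libraries. The 4 called higher are 21.1% of the 19 sterol enzymes, a share not far from that background for so few genes. The median log2 change of the 19 was 0.28, with 13 above 0 and 6 below, while the median over all genes tested was 0.01, with 50.7% above 0. Changes are knockout minus wild type on the log2(value + 1) scale.

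Acat2, the cytosolic thiolase that joins acetyl-CoA units at the entry of the pathway (Entrez 110460, GRCm38 chromosome 17, 12942890 to 12960747), held 691, 503 and 741 normalized reads in the wild-type libraries, against 967, 922 and 1161 in the knockout libraries. Each knockout library was above each wild-type library, and the log2 change was 0.67 (SE 0.17, limma adjusted p = 0.0227). Hmgcs1, the synthase that makes HMG-CoA in the next step, held 7403, 7881 and 8119 in the wild-type and 6363, 7659 and 9101 in the knockout libraries. The knockout libraries lay on either side of the wild-type ones, and the log2 change was -0.03 (95% interval -0.39 to 0.33). The thiolase was thus called and the synthase not. The difference between the 2 genes was not tested, and the 95% interval of Acat2, 0.27 to 1.06, overlaps that of Hmgcs1. Over 557 bases the exons of Hmgcs1 overlap those of Gm48342 on the other strand.

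Between mevalonate and the isoprenoids 3 of 6 genes rose, beside 15% of all genes, a count too small to set against that share. Mvd, the decarboxylase that makes isopentenyl diphosphate (Entrez 192156, chromosome 8, 122433601 to 122443422), held 659, 747 and 740 normalized reads in the wild-type and 1016, 844 and 1352 in the knockout libraries. Its log2 change was 0.56 (SE 0.17, limma adjusted p = 0.0448), close to the threshold of 0.05. Idi1, the isomerase that turns isopentenyl into dimethylallyl diphosphate (Entrez 319554, chromosome 13, 8885501 to 8892451), held 2142, 1858 and 2615 in the wild-type and 3099, 2970 and 3381 in the knockout libraries. The groups did not overlap, and the log2 change was 0.53 (SE 0.14, limma adjusted p = 0.0285). Over 323 bases the exons of Idi1 overlap those of Gm48574 on the other strand. Fdps, the synthase of farnesyl diphosphate (Entrez 110196, chromosome 3, 89093588 to 89101959), held 2195, 2006 and 2696 in the wild-type and 3619, 3030 and 4152 in the knockout libraries. It had the smallest adjusted p of the 28 genes (log2 change 0.65, SE 0.16, limma adjusted p = 0.0207). Its exons overlap those of the predicted gene Gm43738 on the same strand over 1124 bases, and the assignment of reads there is unstated in the labels.

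The kinases Mvk and Pmvk, which phosphorylate mevalonate in turn, did not pass the test. Mvk held 421, 426 and 497 in the wild-type and 496, 576 and 652 in the knockout libraries, where the lowest knockout and the highest wild-type value nearly met. Its log2 change was 0.35 (interval 0.03 to 0.67, limma adjusted p = 0.086). Pmvk had a log2 change of -0.07 (interval -0.41 to 0.28). Ggps1, which takes farnesyl diphosphate out of the sterol path to geranylgeranyl diphosphate, was among the steadiest members, at 323, 322 and 315 in the wild-type and 323, 310 and 284 in the knockout libraries.

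**Figure D2:**
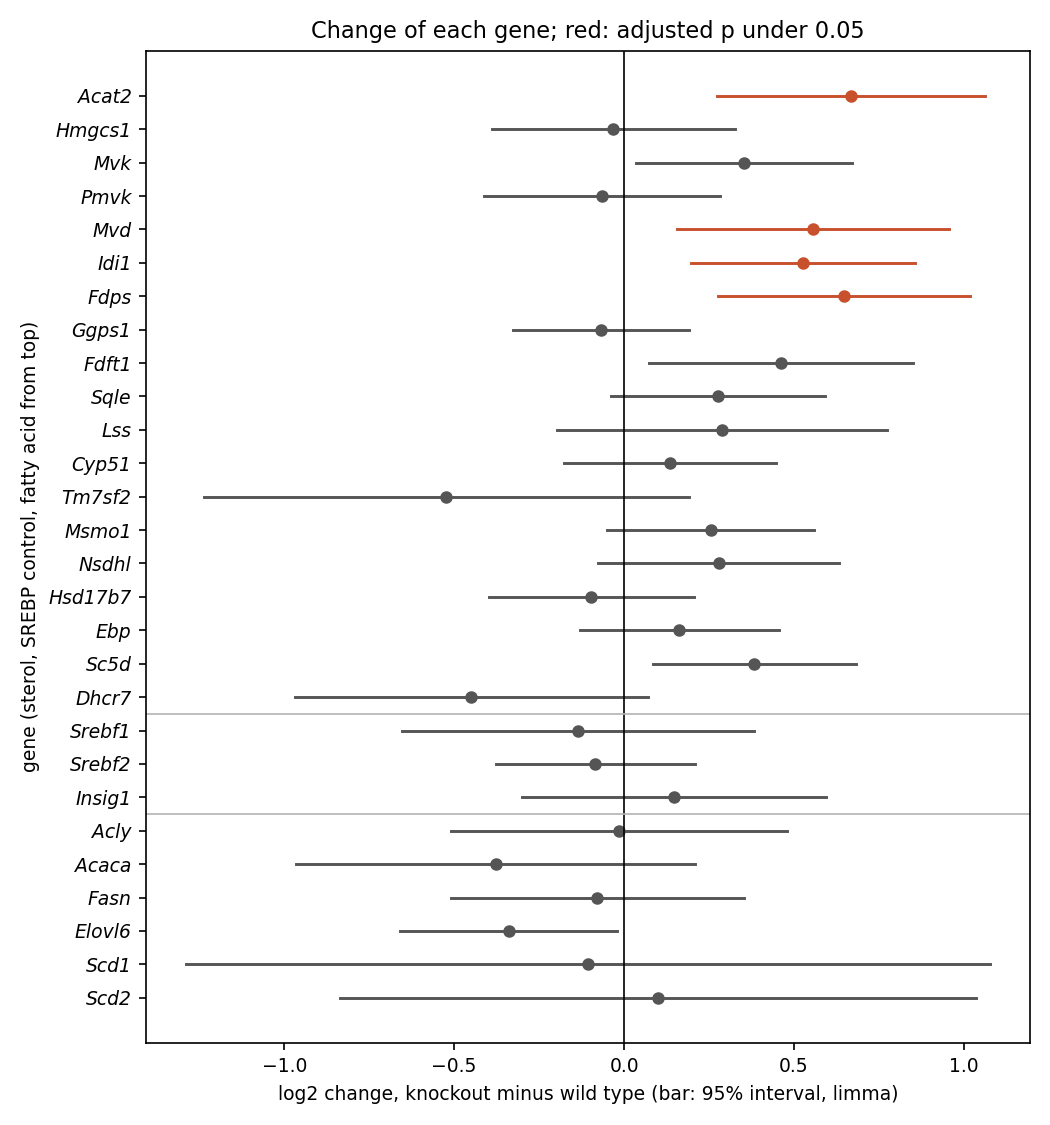
Log2 change (knockout minus wild type, horizontal axis) of the 28 genes in pathway order, with the 95% interval from limma as a bar and genes with an adjusted p under 0.05 in red. The 4 red genes, Acat2, Mvd, Idi1 and Fdps, lie between 0.53 and 0.67, and no fatty acid enzyme is red.

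From farnesyl diphosphate to lanosterol all 3 enzymes had log2 changes above 0 and none passed the test. Fdft1, the squalene synthase, held 1809, 1903 and 2342 in the wild-type and 2934, 2228 and 3226 in the knockout libraries. Knockout replicate 2 fell below the library labelled wild type replicate 3, and the log2 change was 0.46 (interval 0.07 to 0.85, limma adjusted p = 0.0709). Exons of Fdft1 overlap those of the protease gene Ctsb on the other strand over 774 bases, and reads from the 2 genes cannot be told apart there in non-stranded libraries. Ctsb held 4680, 5347 and 4816 in the wild-type and 5908, 5991 and 5804 in the knockout libraries. Sqle, the squalene epoxidase, had a log2 change of 0.28 (interval -0.04 to 0.59) and Lss, the lanosterol synthase, of 0.29 (interval -0.20 to 0.77).

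The 8 enzymes that trim lanosterol to cholesterol went both ways, with 5 log2 changes above 0, 3 below, and 0 called. By unadjusted p under 0.05, 1 of the 8 passed, namely Sc5d, beside 5722 of all 12837 genes tested. Sc5d, the sterol desaturase, held 831, 862 and 995 in the wild-type and 1129, 1050.2 and 1336 in the knockout libraries. The groups did not overlap, but the limma adjusted p was 0.0564 at a log2 change of 0.38 (SE 0.13). Dhcr7, the reductase of the closing step, differed in the opposite direction, with 1590, 1611 and 1530 in the wild-type and 787, 1277 and 1528 in the knockout libraries. Its highest knockout value fell just short of its lowest wild-type value, and knockout replicate 1 lay far below the rest (log2 change -0.45, interval -0.97 to 0.07, limma adjusted p = 0.159). Tm7sf2, a sterol reductase acting after lanosterol demethylation, held 282, 396 and 337 in the wild-type and 138, 292 and 313 in the knockout libraries, again lowest in knockout replicate 1. Cyp51, the lanosterol demethylase, Msmo1, the methylsterol oxidase, Nsdhl and Hsd17b7, which work with it, and Ebp, the sterol isomerase, had log2 changes between -0.10 and 0.28.

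Taking the sterol enzymes by library, the groups did not overlap in 6 of 19, with the knockout above in 5 and below in 1, beside 25.2% and 25.5% of all genes tested. Knockout replicate 3 was the highest of all 6 libraries in 15 of the 19, beside 11.9% of all genes. Among the wild-type libraries the one labelled replicate 3 was highest in 15 of the 19, beside 34.8% of all genes. Summed over the 19 enzymes the wild-type libraries held 29076, 28816 and 33683 normalized reads and the knockout libraries 32981, 33254 and 40812. The sum of the library labelled wild type replicate 3 was thus above those of knockout replicates 1 and 2.

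None of the 4 calls held in every fit with 1 library left out. The part of the smaller sample size in these losses was not tested. With wild type replicate 1 left out, 0 of the 19 sterol enzymes were called higher, where 7.56% of all genes were. The count was also 0 with wild type replicate 2 left out, where 7.77% of all genes were called higher, and with knockout replicate 3 left out, where 12.5% were. By limma the unadjusted p of 7 of the 19 was under 0.05 in the full fit, beside 5722 of all 12837 genes tested. Without the library labelled wild type replicate 3, Acat2, Idi1 and Fdps were called and Mvd was not (limma adjusted p = 0.083), while 12.6% of all genes were called higher. Mvd also lost its call with knockout replicate 1 left out (limma adjusted p = 0.0628), where Mvk gained one. Quantile normalization ended the calls of Mvd and Idi1 (limma adjusted p = 0.0548 and 0.0527). Of the 16 fits, Mvd was called in 10, Idi1 in 12, and Acat2 and Fdps in 13. The 4 log2 changes stayed above 0 in all 16 fits, between 0.50 and 0.78 for Acat2, 0.37 and 0.71 for Mvd, 0.41 and 0.66 for Idi1 and 0.54 and 0.77 for Fdps.

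**Figure D3:**
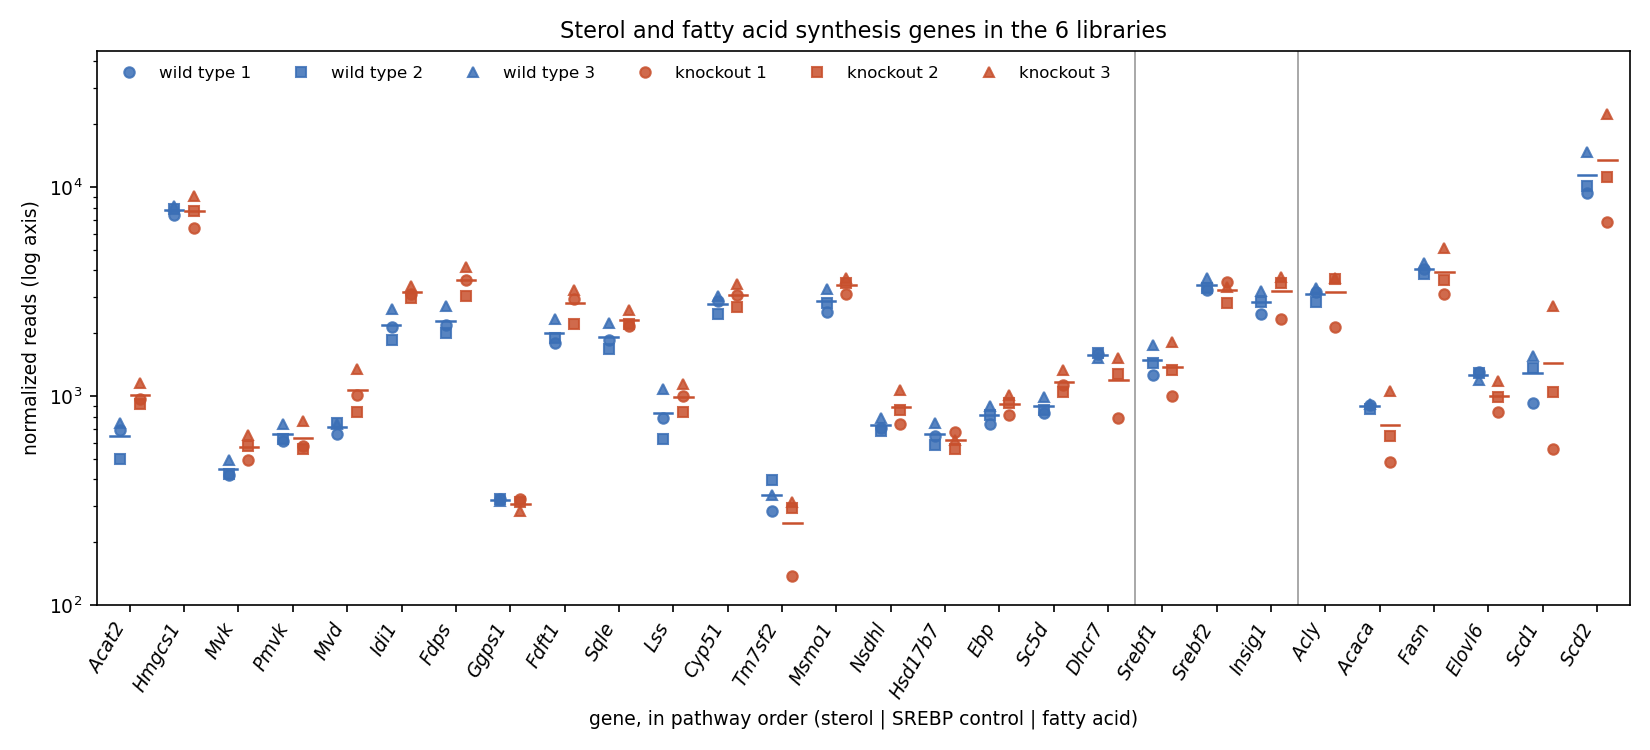
Normalized reads (vertical log axis) of the 28 genes in each of the 6 libraries, with circles, squares and triangles for replicates 1, 2 and 3 of each group and a bar at each group mean. Acat2, Mvd, Idi1, Fdps and Sc5d show all knockout points above all wild-type points, and Scd1 and Scd2 show the widest knockout spread.

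The 3 genes of SREBP control did not pass the test, nor did they with the library labelled wild type replicate 3 left out. Srebf2 held 3215, 3282 and 3685 normalized reads in the wild-type and 3521, 2780 and 3328 in the knockout libraries (log2 change -0.08, interval -0.38 to 0.21). Srebf1 held 1263, 1448 and 1769 in the wild-type and 1001, 1340 and 1819 in the knockout libraries (log2 change -0.14, interval -0.65 to 0.38). Insig1, itself a known SREBP target, held 2464, 2839 and 3202 in the wild-type and 2345, 3470 and 3732 in the knockout libraries (log2 change 0.15, interval -0.30 to 0.59). Exons of Srebf1 overlap those of Rai1 on the other strand over 109 bases. In all 3 the groups overlapped, and the library labelled wild type replicate 3 was the highest wild-type one. These are transcript levels and do not measure cleavage of the SREBP proteins.

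In fatty acid synthesis the knockout libraries lay farther apart than the wild-type libraries in 6 of 6 enzymes, as they did in 63.6% of all genes. None of the 6 enzymes passed the test, and by unadjusted p under 0.05 limma counted 1, Elovl6, beside 5722 of all 12837 genes. The median log2 change was -0.09, with 1 above 0 and 5 below in the limma fit. This split was 3 and 3 with edgeR, with DESeq2 and with the library labelled wild type replicate 3 left out, and 4 above 0 and 2 below with knockout replicate 1 left out. In each of the 6 enzymes knockout replicate 1 was the lowest of all 6 libraries, beside 28.8% of all genes tested, 37.9% having it lowest among the 3 knockout libraries, and knockout replicate 3 was the highest knockout library, beside 30.3% of all genes. It follows that both held together, with replicate 2 between them, in 6 of 6, beside 18.1% of all genes. That order of knockout libraries was also seen in 8 of the 19 sterol enzymes. Knockout replicate 3 was the highest knockout library in 17 of those 19. Of the 19 tested genes of fatty acid supply and elongation described below, 11 had the full order.

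Acly, which makes cytosolic acetyl-CoA from citrate, held 3144, 2828 and 3306 normalized reads in the wild-type and 2135, 3636 and 3675 in the knockout libraries (log2 change -0.01, interval -0.51 to 0.48). Acaca, the acetyl-CoA carboxylase that makes malonyl-CoA, held 907, 871 and 923 in the wild-type and 486, 646 and 1058 in the knockout libraries (log2 change -0.38, interval -0.96 to 0.21). Fasn, the synthase that builds palmitate, held 4052, 3826 and 4344 in the wild-type and 3085, 3616 and 5117 in the knockout libraries (log2 change -0.08, interval -0.51 to 0.35). For all 3 the wild-type libraries lay close together and within the range of the knockout libraries. The ratio of the highest to the lowest library was 1.06 in wild type and 2.17 in knockout for Acaca, and 1.14 and 1.66 for Fasn.

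Elovl6, which elongates palmitate to stearate, was the only 1 of the 6 enzymes whose groups did not overlap, beside 50.7% of all genes tested. It held 1302, 1289 and 1201 in the wild-type and 842, 997 and 1185 in the knockout libraries. Its limma adjusted p was 0.0957 at a log2 change of -0.34 (SE 0.14). Scd1, a desaturase that makes oleate from stearate, held 924, 1367 and 1566 in the wild-type and 560, 1049 and 2700 in the knockout libraries, a 4.82-fold range among knockout libraries against 1.69-fold among wild-type ones. Scd2, its paralog, held 9406, 10095 and 14680 in the wild-type and 6811, 11233 and 22413 in the knockout libraries, a 3.29-fold range against 1.56-fold. The intervals of the log2 change were correspondingly wide, -1.29 to 1.08 for Scd1 and -0.84 to 1.04 for Scd2, so neither a rise nor a fall by up to about these sizes can be told from no change. Scd1 and Scd2 lie on chromosome 19 in a cluster of close paralogs, and reads may have been shared or dropped among them by the counting. Scd3 and Scd4 of that cluster, added after their values were seen, were also lowest in knockout replicate 1 (230 and 101) and highest in knockout replicate 3 (669 and 376).

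Without knockout replicate 3, Acaca and Elovl6 were called lower (log2 change -0.68 and -0.46, limma adjusted p = 0.0237 and 0.0371), while 13.3% of all genes were. Without knockout replicate 1, 0 of the 6 were called, nor were any with the library labelled wild type replicate 3 left out, where 12.5% of all genes were called lower. The median ratio of the highest to the lowest library was 1.95 among knockout and 1.15 among wild-type libraries for the 6 enzymes, 1.32 and 1.22 for the 19 sterol enzymes, and 1.36 and 1.25 over all genes tested. Summed over the 6 enzymes the wild-type libraries held 19736, 20277 and 26021 normalized reads and the knockout libraries 13919, 21177 and 36147. The largest part of each sum was Scd2, with 9406, 10095 and 14680 in the wild-type and 6811, 11233 and 22413 in the knockout libraries. Acly, Acaca and Fasn summed to 8104, 7526 and 8573 in the wild-type and 5707, 7898 and 9849 in the knockout libraries.

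**Figure D4:**
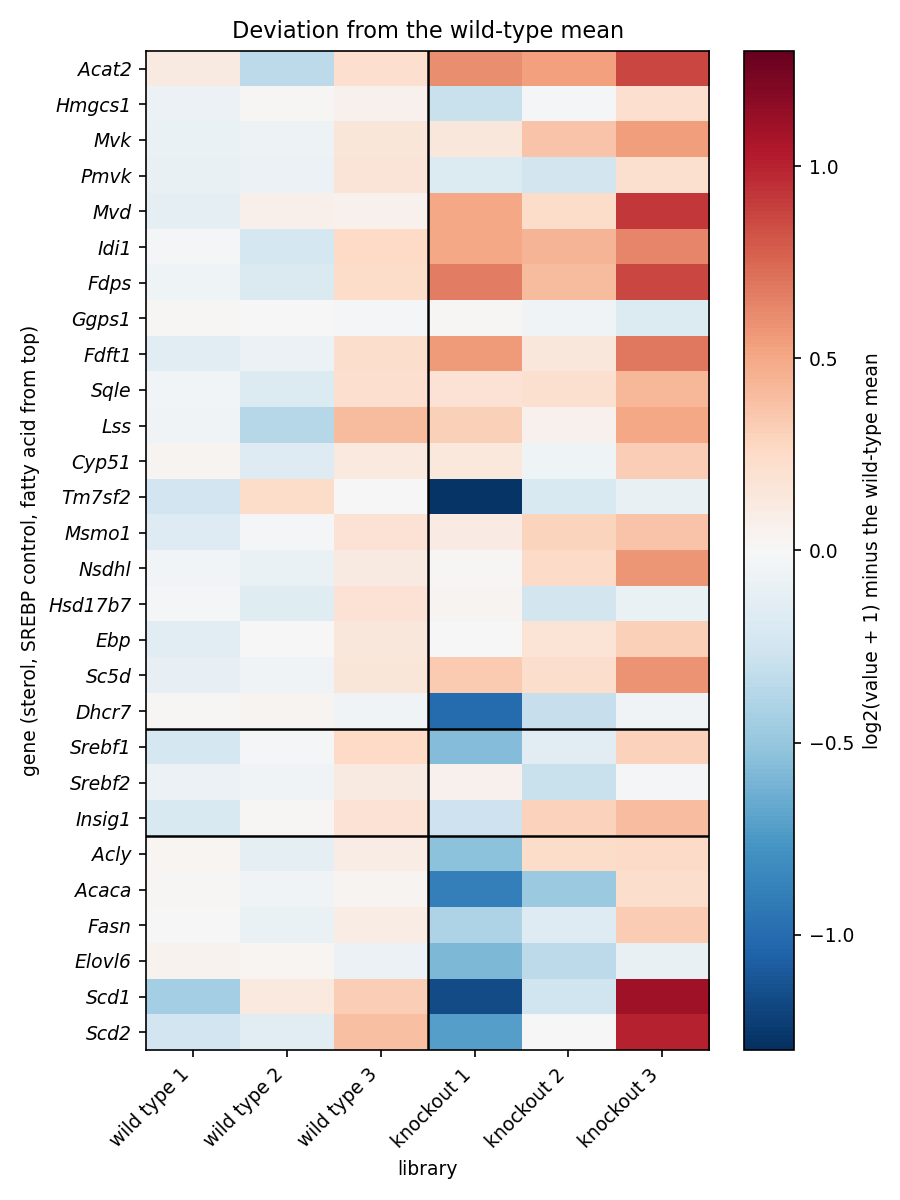
Log2(value + 1) of each of the 28 genes (rows) in each library (columns) minus the mean of the wild-type libraries, red above and blue below. The 6 fatty acid enzymes at the bottom are blue in knockout 1 (median -0.65) and mostly red in knockout 3 (median 0.29), and the sterol enzymes are mostly red in knockout 3 (median 0.43).

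Markers of other cells and of dividing cells moved with the libraries. Of 14 myeloid markers, all tested, 10 rose and 0 fell, and their summed level was 672, 1069 and 1314 normalized reads in the wild-type and 8606, 3609 and 3484 in the knockout libraries, highest in knockout replicate 1, where the fatty acid enzymes were lowest. Much of the myeloid sum in knockout replicate 1 was S100a8 (2129), S100a9 (2330), Cd14 (1490) and Lyz2 (1170), of which Lyz2 was not called. No myeloid marker was at 0 in any library. Of 9 markers of stroma and endothelium 6 could be tested and 2 rose, with sums of 181, 312 and 620 in the wild-type and 2402, 490 and 958 in the knockout libraries. The endothelial marker Cdh5 was at 0 in 4 libraries. Pecam1, also of endothelium, went the other way from the markers that rose. It held 22.3, 27.4 and 18.2 in the wild-type and 7.34, 8.28 and 15.3 in the knockout libraries (limma adjusted p = 0.055). Of the 6 tested, 5 log2 changes were above 0 and 1 below. With the library labelled wild type replicate 3 left out, the myeloid count was the same and 3 of the 6 stromal and endothelial markers rose. Of 9 lymphoid markers 2 could be tested and 0 passed, with sums of 38.1 to 131 and 73.5 to 250.1. The fat cell markers Adipoq, Plin1 and Lep were at 0 in all 6 libraries, so these defining markers of adipocytes were not detected beside the fatty acid enzymes. Of the other 4 genes of that list 3 could be tested and 2 fell, and the list's sum was 1977 to 3905 in the wild-type and 220.1 to 704 in the knockout libraries. Most of that sum was Pck1, a gluconeogenic enzyme singled out after its values were seen, and the other 6 genes summed to 237 to 330 and 160 to 256. Of 12 proliferation markers 7 rose and 0 fell, with sums of 6862, 3684 and 7635 in the wild-type and 13593, 9229 and 8645 in the knockout libraries. The counts of 2 fat cell genes lower, 0 lymphoid markers called and 7 proliferation markers higher also held with the library labelled wild type replicate 3 left out. Markers called higher were 71.4% of the myeloid, 33.3% of the tested stromal and endothelial and 58.3% of the proliferation markers, beside 15% of all genes. Of all genes 15.4% were called lower. Without that library 12.6% of all genes were called higher and 12.5% lower. The part of other cells and of proliferation in the values of the sterol and fatty acid enzymes was not tested.

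Levels per length, in normalized reads per kilobase of the gene's median transcript length in GENCODE, placed Hmgcs1 first among the 28 in the wild-type libraries at 2325 ± 109 (SD, n = 3), followed by Scd2 at 2089 ± 526 and Fdps at 1755 ± 272. The spreads of Hmgcs1 and Scd2 overlap, as do those of Scd2 and Fdps. Msmo1 came next at 1404 ± 178 and Insig1 at 1051 ± 137. At the low end were Lss at 178 ± 49.3, Ggps1 at 130 ± 1.68 and Acaca at 97.2 ± 2.89. In the knockout libraries Fdps stood at 2749 ± 429, Scd2 at 2472 ± 1474 and Hmgcs1 at 2298 ± 408, an order that lies within their spread.

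Genes around the 2 pathways were read from the same fit. Of 24 tested genes of sterol sensing, transport and breakdown 0 rose and 5 fell, beside 15.4% of all genes called lower. Cyp39a1, an oxysterol hydroxylase of bile acid synthesis, fell from 325, 262 and 255 normalized reads to 69.2, 93.1 and 101 (log2 change -1.67, limma adjusted p = 0.00138). Mylip, a ubiquitin ligase induced by the sterol sensor LXR that degrades lipoprotein receptors, fell from 97.6, 125 and 76.5 to 33.5, 31 and 47.7 (log2 change -1.39, limma adjusted p = 0.00796). Pgrmc1, a heme-binding partner of cytochromes P450, fell from 1519, 1532 and 1269 to 872, 1035 and 769 (log2 change -0.70, limma adjusted p = 0.0101). The remaining ones, named after their values were seen, were Stard4, a cholesterol carrier (log2 change -0.57, limma adjusted p = 0.0367), and Nr1h3, the gene of LXR alpha (log2 change -0.58, limma adjusted p = 0.0486), whose call held in 8 of 16 fits. The median log2 change of the 24 genes was -0.05. With any 1 wild-type library left out, the one labelled replicate 3 included, 3 of the 24 fell. Of all genes 7.42%, 7.5% and 12.5% were called lower without wild type replicates 1, 2 and 3 in turn.

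Of 11 genes that draw isoprenoids into other products 2 rose and 1 fell, which is 18.2% and 9.09%, near the 15% and 15.4% of all genes. Nus1, a subunit of the dolichol-making prenyltransferase, rose from 1695, 1920 and 1832 to 3525, 2546 and 2558 (log2 change 0.65, limma adjusted p = 0.0157). Icmt, which methylates prenylated proteins, rose from 477, 580 and 536 to 720.2, 767 and 726 (log2 change 0.48, limma adjusted p = 0.0167). Coq2, the prenyltransferase of ubiquinone synthesis, fell from 530, 479 and 475 to 405, 326 and 335 (log2 change -0.48, limma adjusted p = 0.0251). With wild type replicate 1 left out, 0 of the 11 rose, where 7.56% of all genes did. With the library labelled wild type replicate 3 left out 2 rose, where 12.6% of all genes did. The fall of Coq2 kept its call only when knockout replicate 1 was the library left out.

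Of 19 tested genes that supply, activate, elongate or desaturate fatty acids 6 rose and 6 fell, 31.6% each way beside 15% and 15.4% of all genes, and the median log2 change was 0.03. Mlxipl, the gene of the carbohydrate-responsive factor ChREBP that also drives lipid synthesis genes, fell from 204, 223 and 157 to 37.7, 57.9 and 73.5 (log2 change -1.80, limma adjusted p = 0.00358). Mlx, its dimer partner, rose from 1338, 1395 and 1596 to 2221, 2172 and 2065 (log2 change 0.58, limma adjusted p = 0.00726). Acsl5, an acyl-CoA synthetase, rose from 1262, 1066 and 1446 to 2734, 2355 and 2135 (log2 change 0.94, limma adjusted p = 0.00429). Slc25a1, the carrier that exports the citrate used by Acly and named after its values were seen, rose from 1210, 1309 and 1139 to 1923, 1667 and 1900 (log2 change 0.58, limma adjusted p = 0.00752). With either of wild type replicates 1 and 2 left out, 3 of the 19 fell, where 7.42% and 7.5% of all genes did. With the library labelled wild type replicate 3 left out, 5 rose and 5 fell, where 12.6% and 12.5% of all genes did.

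Of 11 genes of glycerolipid synthesis, which joins fatty acids to glycerol, 2 rose and 1 fell, again 18.2% and 9.09%, near the shares of all genes. The counts were the same without the library labelled wild type replicate 3, though another gene than Gpam then fell. In that fit 12.6% of all genes rose and 12.5% fell. Dgat2, which makes triglyceride from diacylglycerol, rose from 606, 694 and 527 to 2545, 1986 and 2224 (log2 change 1.89, limma adjusted p = 0.000388), a 3.70-fold change with no overlap. Agpat2, an acyltransferase earlier in that path, rose from 1611, 1616 and 1531 to 3400, 2566 and 2350 (log2 change 0.79, limma adjusted p = 0.00774). Gpam, the mitochondrial enzyme of its first step, fell from 236, 157 and 190 to 113, 126 and 144 (log2 change -0.59, limma adjusted p = 0.0488). The call of Gpam ended without wild type replicate 1, the library labelled wild type replicate 3 or any 1 knockout library, and with no filter, upper-quartile scaling or quantile normalization.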

How the data were processed

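The 6 libraries are poly(A) RNA-seq that keeps no strand (TruSeq), per the labels' protocols. The submitters' processing notes name FastQC, TopHat, DESeq2 and mm10, without versions, while the read counter is not given in the sources used here. In the deposited table each value is a normalized signal, a gene's read count over a size factor shared by its library: 100% of values were whole multiples of 1 step within 0.001. Of 23725 Entrez identifiers 23666 matched a RefSeq symbol of GRCm38.p6. limma 3.58.1 (R 4.3.3, trended prior) was fitted to log2(value + 1) of 12837 genes that reached 10 in 3 or more of 6 libraries, with Benjamini-Hochberg adjustment and a threshold of 0.05, and the fit was tested on simulated data. edgeR 4.0.16 and DESeq2 1.42.0 were run on the recovered reads as alternatives, which found 1887 and 2148 genes higher. Gene positions, lengths and overlaps are from GENCODE M21 on GRCm38, and the authors' annotation may differ. Depth was 10089313 to 12030844 recovered reads per library. Libraries of a group were compared only to find any deposited in duplicate, and none was found (chi-square over its degrees of freedom 14.2 to 53.9).

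Replicate numbers are names in accession order that make no pairs. No batch is given in the labels. Members, gene lists and tests were chosen with earlier results of these data known. By rule the named genes were Nr3c1, every member, up to 3 called genes per list with the smallest adjusted p, and genes whose exons overlap a member's on the other strand. Besides the overlaps given above, this held for Cyp51 (Akap9, 166 bases), Ggps1 (Arid4b, 257), Lss (4930483K19Rik, 381) and Elovl6 (Gm35986, 34). Reads from such pairs cannot be told apart there in these non-stranded libraries. Markers are given mainly as sums and counts. Stard4, Nr1h3, Slc25a1, Scd3, Scd4, Car1, Pck1, Pecam1, S100a8, S100a9, Cd14, Lyz2, Gm43738 and the markers at 0 fall outside that use of the rule. They were chosen after their values were seen. Other genes of these pathways were not analysed here.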

Additional observations from a re-analysis of the deposited data

How the results depend on the processing

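Of the 28 members' log2 changes under settings that kept all 6 libraries (other pseudocounts, filters and scalings, edgeR, DESeq2), 5 changed sign, all of genes that were not called: Acly was 0.0147 with edgeR and 0.0274 with DESeq2, Scd1 was 0.15 and 0.16, and Scd2 was -0.0478 with quantile normalization. Quantile normalization called 2 sterol enzymes higher, with Mvd and Idi1 lost, and DESeq2 added Fdft1 (DESeq2 adjusted p = 0.047). The genes of glycerolipid synthesis called lower were 0 with no filter, with upper-quartile scaling and with quantile normalization. Leaving out 1 library at a time gave 0 to 6 sterol enzymes higher, 0 to 2 fatty acid enzymes lower, 970 to 1782 of all genes higher and 953 to 1825 lower. It gave 3 to 5 genes of sterol sensing and handling lower, 0 to 2 isoprenoid-branch genes higher and 0 to 1 lower, 3 to 7 fatty acid supply genes lower and 0 to 1 glycerolipid genes lower. The log2 change then ranged from -0.16 to 0.10 for Hmgcs1, -0.20 to 0.0206 for Pmvk, -0.35 to 0.0779 for Srebf1, -0.16 to 0.0151 for Srebf2, -0.15 to 0.24 for Acly, -0.28 to 0.0803 for Fasn, -0.71 to 0.42 for Scd1, -0.35 to 0.51 for Scd2, -0.26 to 0.51 for Scd3 and -0.46 to 0.48 for Scd4. Fewer samples were fitted there, and other causes of these shifts were not tested. No scaling moved the median gene by more than 0.02 on the log2 scale. No paired analysis was possible because the replicate numbers are only names in accession order.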

Other observations

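Ratios of 2 genes within a library do not depend on how libraries were scaled. The following ratios were chosen after the values were seen, and they are given as values without a test. Fdps stood to Hmgcs1 as 0.297, 0.255 and 0.332 in the wild-type and 0.569, 0.396 and 0.456 in the knockout libraries. Idi1 stood to Hmgcs1 as 0.289, 0.236 and 0.322 in the wild-type and 0.487, 0.388 and 0.371 in the knockout libraries. Mvd to Hmgcs1 was 0.0917 ± 0.00291 in the wild-type and 0.14 ± 0.0259 in the knockout libraries (SD, n = 3). In each of these pairs every knockout library was above every wild-type library. Fdps, Idi1 and Mvd already had that separation alone and Hmgcs1 was not called, so the ratios are not separate support.

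At the other end of the pathway, the ratio of Dhcr7 to Sc5d was 1.91, 1.87 and 1.54 in the wild-type and 0.697, 1.22 and 1.14 in the knockout libraries, with no overlap. The groups of Dhcr7 and of Sc5d were already apart, in opposite directions, so this ratio was bound to separate. The ratio of Scd1 to Scd2, whose levels ranged widely among the knockout libraries, was 0.0983, 0.135 and 0.107 in the wild-type and 0.0822, 0.0934 and 0.12 in the knockout libraries, so the paralogs kept within a narrower range relative to each other than either did alone.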
